A study of Homo sapiens with 7 samples.

Results

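AP-1 is a family of dimeric transcription factors, and the expression of 10 of its genes was followed in SUM159 cells with and without a hairpin against SHP2. The genes were FOS, FOSB, FOSL1, FOSL2, JUN, JUNB, JUND, ATF3, MAFF and BATF3. They were chosen as named members of the family, and a probe counted for a gene when the array annotation gave it that symbol alone. Each of the 10 had 1 such probe, so they are 10 of the 18417 genes measured. SUM159 is a mesenchymal triple-negative breast cancer line. The cells carried a doxycycline-inducible lentiviral hairpin and had been kept in doxycycline for 15 days in 2D culture, controls included. The groups were SHP2 sh1 (2 arrays), SHP2 sh2 (3 arrays) and Ctrl shRNA (2 arrays), all hybridized to Human Gene 1.0 ST arrays. The sample characteristics call the same hairpins SHP2 miR1, SHP2 miR2 and CTRL miR. The model is a single cell line. Whether arrays of 1 group were grown apart is not given in the labels, and the p-values then cover a spread between arrays that may be technical.

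AP-1 proteins carry a basic region that contacts DNA and a leucine zipper through which they pair. JUN proteins pair with one another or with FOS proteins, whereas FOS proteins need a JUN partner, and ATF3, BATF3 and MAFF join the same network through their own zippers. Growth factor signals reach the family through RAS and ERK, which induce FOS transcription and stabilise several FOS proteins, and SHP2 acts upstream of RAS. AP-1 is known in breast cancer for invasion genes such as matrix metalloproteinases and for cytokines such as IL-8, the product of CXCL8.

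PTPN11, the gene of SHP2, was at 7.42 ± 0.68 (SD, n = 2) on the log2 scale under SHP2 sh1 and 7.68 ± 0.42 (SD, n = 3) under SHP2 sh2, against 9.35 ± 0.25 (SD, n = 2) under Ctrl shRNA. All 5 SHP2 arrays lay below both controls, as did those of 7.17% of all genes, yet the log2 fold change of -1.80 did not pass the adjusted threshold (adjusted p = 0.758 from limma). Replicate 2 of SHP2 sh1 and replicate 2 of SHP2 sh2 stood apart from the rest, with correlations of 0.886 to 0.965 to the other 5 arrays, which correlated at 0.981 to 0.992 among themselves. Many of the results below are given with and without these 2 arrays. Of 5 mesenchymal markers, FN1 was at 12.1 to 12.9, VIM at 11.6 to 12.2 and SNAI2 at 10.2 to 11.3 over the 7 arrays, whereas ZEB1 was at 7.01 to 8.61 and CDH2 at 6.77 to 9.28, both lowest on SHP2 sh2 replicate 2. EPCAM, an epithelial marker, was at 2.89 to 4.10, ESR1, the oestrogen receptor, at 5.60 to 6.73, and PTPRC, the leukocyte marker, at 3.90 to 4.75, whereas the keratin gene KRT8 was at 9.73 to 11.2. CDH1, which encodes E-cadherin, was at 5.16 and 7.42 under SHP2 sh1 and at 6.21, 7.12 and 5.61 under SHP2 sh2, against 5.32 and 5.19 under Ctrl shRNA, with its highest values on the same 2 arrays. The median of 5 blood and endothelial markers was higher by 0.35 and 0.57 than in the controls on these arrays, where all genes of a like control level were higher by 0.26 to 0.36 and by 0.53 to 0.63. PECAM1, an endothelial marker, was 1.59 above the control mean on SHP2 sh1 replicate 1 and 1.09 on SHP2 sh2 replicate 3. The part of these markers in the results was not tested.

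No AP-1 gene changed past the threshold of the test. limma called 0 of the 10 genes at an adjusted p under 0.05 under SHP2 sh1, under SHP2 sh2, for both hairpins averaged and for one hairpin against the other, where the background over all 18417 genes was 0% in each comparison, also without the 2 arrays that stood apart. The smallest adjusted p of the 10 was 0.667, for SHP2 sh2. At an unadjusted p under 0.05 there was 1 of the 10, FOS, which was lower under SHP2 sh2 than under SHP2 sh1. The shares of all genes at that level were 1.25% lower and 0.69% higher for both hairpins averaged, 0.456% and 0.635% for SHP2 sh1, 1.81% and 0.532% for SHP2 sh2, and 0.57% and 0.0597% for SHP2 sh2 over SHP2 sh1. Among the members, JUN differed most from the controls, on the SHP2 sh2 arrays, and FOS differed most between the hairpins. JUNB was the 1 gene of the 10 lower than both controls on all 5 SHP2 arrays, as were 7.17% of all genes. Averaged over both hairpins, 3 of the 10 had a log2 fold change below 0, beside 42% of all genes, and the median was 0.20, beside 0.075 over all genes. Below 0 were 2 of the 10 under SHP2 sh1, beside 43.5%, and 5 of the 10 under SHP2 sh2, beside 42.8%.

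**Figure D1:**
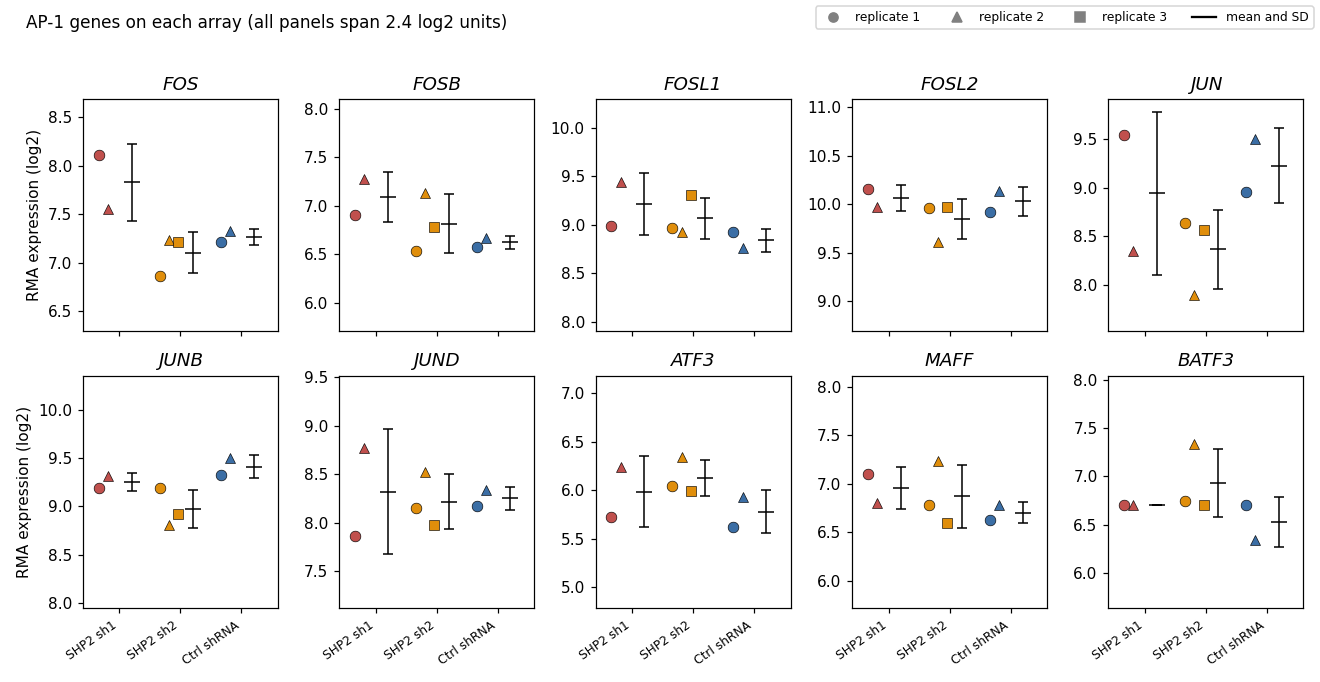
RMA expression (log2) of the 10 AP-1 genes on each array. Colour and position stand for the group, symbols for the replicate number and bars for the group mean and SD. JUN lies between 7.89 and 8.63 under SHP2 sh2, against 8.95 and 9.50 under Ctrl shRNA, and FOS at 8.11 and 7.55 on the 2 SHP2 sh1 arrays, against 7.21 and 7.33 on the controls.

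The promoters of 4 of these genes are shown: JUN, FOS and JUNB because the results turn on them, and ATF3 because it holds the same 8 letters as JUN. RefSeq promoter windows on GRCh38.p14, from 250 bases before to 50 after a start, were found for 8 of the 10 genes in 10 windows. FOSL1 and BATF3 had no entry. The lines give the 250 bases before the first listed start, on the strand of the gene, for JUN at chr1:58784048-58784297 (minus strand), ATF3 at chr1:212565157-212565406 (plus strand), FOS at chr14:75278578-75278827 (plus strand) and JUNB at chr19:12791236-12791485 (plus strand). Capitals mark matches to the motifs searched.
JUN: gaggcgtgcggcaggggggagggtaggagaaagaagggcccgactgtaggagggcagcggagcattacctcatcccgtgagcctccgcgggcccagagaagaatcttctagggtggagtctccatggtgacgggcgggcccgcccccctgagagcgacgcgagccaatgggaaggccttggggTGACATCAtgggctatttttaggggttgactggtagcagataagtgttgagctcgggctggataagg
ATF3: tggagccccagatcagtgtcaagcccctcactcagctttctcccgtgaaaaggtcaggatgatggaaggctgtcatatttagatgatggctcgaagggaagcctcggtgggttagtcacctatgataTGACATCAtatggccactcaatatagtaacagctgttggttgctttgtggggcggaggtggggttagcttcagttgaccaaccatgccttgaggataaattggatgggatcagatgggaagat
FOS: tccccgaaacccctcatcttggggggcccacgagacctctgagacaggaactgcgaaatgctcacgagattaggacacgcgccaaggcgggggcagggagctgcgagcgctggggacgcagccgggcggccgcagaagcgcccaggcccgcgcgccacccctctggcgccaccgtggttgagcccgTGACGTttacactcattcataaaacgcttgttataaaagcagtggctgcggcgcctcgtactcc
JUNB: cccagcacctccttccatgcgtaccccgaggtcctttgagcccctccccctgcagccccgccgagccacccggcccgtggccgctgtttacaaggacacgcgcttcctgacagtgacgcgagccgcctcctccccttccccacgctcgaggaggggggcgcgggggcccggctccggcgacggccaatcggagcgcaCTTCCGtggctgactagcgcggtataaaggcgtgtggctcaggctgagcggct
The motifs were TGANTCA (an AP-1 site), TGACNTCA (the CRE-like form of that site), ACGTCA (a CRE core), CGGAAG (an ETS core) and the CArG box of serum response factor, each searched on both strands. A TGACNTCA match that reads TGACGTCA also holds ACGTCA. The capitals TGACATCA stood at -67 to -60 from the start in JUN and at -123 to -116 in ATF3. In FOS they marked TGACGT at -64 to -59, and in JUNB they marked CTTCCG at -53 to -48. TGACNTCA was found in 4 of the 10 windows (of JUN, ATF3, JUND and MAFF), beside 7.72% of all 35116 windows. ACGTCA was found in 5 of the 10 windows, beside 7.98%, and CGGAAG in 2 of them, beside 19.5%. TGANTCA was found in FOSL2, just after its start, beside 7.71%, and the CArG box in none of the 10 windows, beside 1.29%. Sites farther than 250 bases before or 50 after a start were not searched, so a gene without a match here may hold one beyond. A match of letters is no measurement of binding.

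JUN, which pairs with itself and with FOS proteins, had the widest spread of the family. Its log2 expression was 9.54 and 8.35 under SHP2 sh1 and 8.63, 7.89 and 8.57 under SHP2 sh2, against 8.95 and 9.50 under Ctrl shRNA. All 3 SHP2 sh2 arrays lay below both controls with a gap of 0.32, as did those of 16.1% of all genes, whereas the 2 SHP2 sh1 arrays lay on either side of them. The log2 fold change was -0.86 under SHP2 sh2 (standard error 0.42, adjusted p = 0.667 from limma) and -0.28 under SHP2 sh1 (standard error 0.46, adjusted p = 0.995). Without the 2 arrays that stood apart it was -0.63 under SHP2 sh2 and 0.31 under SHP2 sh1, which is then 1 array. Over all the other settings it ran from -1.14 to -0.37 under SHP2 sh2 and from -0.88 to 0.31 under SHP2 sh1. The residual SD of JUN, 0.55, was above that of 82.0% of genes.

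JUNB is a JUN protein induced early by growth factors. Its values were 9.19 and 9.32 under SHP2 sh1 and 9.19, 8.81 and 8.92 under SHP2 sh2, against 9.33 and 9.50 under Ctrl shRNA. The gap between the highest SHP2 array and the lowest control was 0.0067, and 7.17% of all genes lay below both controls on all 5 arrays, 12.3% on both SHP2 sh1 arrays and 16.1% on the 3 SHP2 sh2 arrays. The log2 fold change was -0.16 under SHP2 sh1 (standard error 0.22) and -0.44 under SHP2 sh2 (standard error 0.20, adjusted p = 0.667 from limma), and without the 2 arrays that stood apart -0.22 under SHP2 sh1 and -0.35 under SHP2 sh2. After cyclic loess, another normalization between arrays, JUNB was at -0.004 for the mean of both hairpins, against -0.30 as deposited, and at 0.074 for SHP2 sh1.

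JUND, a JUN protein that is expressed also in resting cells, split within the groups. It was at 7.86 and 8.78 under SHP2 sh1, and at 8.16, 8.52 and 7.97 under SHP2 sh2, against 8.17 and 8.34 under Ctrl shRNA, so that each hairpin overlapped the controls. The 2 highest values came from the arrays that stood apart. Its log2 fold change for the mean of both hairpins was 0.016 (95% interval -0.69 to 0.72), and -0.29 without those arrays.

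FOS, the founding member of its family and an immediate early gene, was the member whose arrays did not overlap between the hairpins. It was at 8.11 and 7.55 under SHP2 sh1, and at 6.86, 7.23 and 7.21 under SHP2 sh2, against 7.21 and 7.33 under Ctrl shRNA. Both SHP2 sh1 arrays lay above both controls, as did those of 12.8% of all genes, and the SHP2 sh2 arrays overlapped the controls. All 3 SHP2 sh2 arrays lay below both SHP2 sh1 arrays, which held for 3.08% of all genes and, among the members, for FOS alone, and no member lay above, beside 2.21%. The log2 fold change of SHP2 sh2 over SHP2 sh1 was -0.73 (standard error 0.24, 95% interval -1.31 to -0.15), a 1.66-fold lower level. Its unadjusted p of 0.022 ranked FOS at place 39 of the 18417 genes, and 0.57% of genes were lower at an unadjusted p under 0.05. It did not pass after adjustment (adjusted p = 1.00 from limma). Against Ctrl shRNA the log2 fold change was 0.56 under SHP2 sh1 (standard error 0.27) and -0.16 under SHP2 sh2 (standard error 0.24). Without the 2 arrays that stood apart, the difference between hairpins was -1.07, with 1 array left under SHP2 sh1, and without SHP2 sh1 replicate 1 it was -0.45.

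FOSB, the nearest relative of FOS, was at 6.91 and 7.27 under SHP2 sh1, and at 6.53, 7.13 and 6.78 under SHP2 sh2, against 6.58 and 6.67 under Ctrl shRNA. Both SHP2 sh1 arrays lay above both controls, as did those of 12.8% of all genes, and the SHP2 sh2 arrays overlapped the controls. FOS, FOSL1 and MAFF had the same placing, so 4 of the 10 members lay above both controls under SHP2 sh1, beside that 12.8%. Between the hairpins, however, the groups of FOSB overlapped, with a log2 fold change of -0.28 (95% interval -0.86 to 0.31). Its log2 fold change was 0.47 under SHP2 sh1 (standard error 0.27) and 0.19 under SHP2 sh2 (standard error 0.24), and without the 2 arrays that stood apart 0.29 under SHP2 sh1 and 0.03 under SHP2 sh2.

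FOSL1 encodes FRA-1, a FOS protein without the activation domain of FOS that ERK phosphorylation stabilises and that is known for its high level in mesenchymal breast cancer cells. It was at 8.99 and 9.44 under SHP2 sh1, and at 8.97, 8.92 and 9.31 under SHP2 sh2, against 8.92 and 8.76 under Ctrl shRNA. No SHP2 array lay below a control, and SHP2 sh2 replicate 2 had the same value as Ctrl shRNA replicate 1 to 6 decimals. The log2 fold change was 0.37 under SHP2 sh1 (standard error 0.25) and 0.23 under SHP2 sh2 (standard error 0.23), neither past the threshold. For the mean of both hairpins it ran from 0.19 to 0.58 over the other settings.

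FOSL2, which encodes the related FRA-2, had the narrowest range of the 10 over the 7 arrays, 0.55. Its values were 10.16 and 9.97 under SHP2 sh1 and 9.96, 9.61 and 9.97 under SHP2 sh2, against 9.92 and 10.14 under Ctrl shRNA. Each hairpin overlapped the controls, and the log2 fold change for the mean of both was -0.07 (95% interval -0.53 to 0.39). An interval of this width does not show an equal level.

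ATF3, a stress-induced factor that can repress transcription as a pair with itself, overlapped the controls under SHP2 sh1 and not under SHP2 sh2. It was at 5.73 and 6.24 under SHP2 sh1, and at 6.04, 6.34 and 5.995 under SHP2 sh2, against 5.62 and 5.93 under Ctrl shRNA. All 3 SHP2 sh2 arrays lay above both controls with a gap of 0.062, as did those of 24.2% of all genes. The log2 fold change was 0.35 under SHP2 sh2 (standard error 0.24) and 0.21 under SHP2 sh1 (standard error 0.27). Without the 2 arrays that stood apart it was 0.24 under SHP2 sh2 and -0.052 under SHP2 sh1.

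MAFF, a small MAF protein without an activation domain, was at 7.11 and 6.80 under SHP2 sh1, and at 6.78, 7.24 and 6.60 under SHP2 sh2, against 6.62 and 6.78 under Ctrl shRNA. Its log2 fold change was 0.25 under SHP2 sh1 (standard error 0.27) and 0.17 under SHP2 sh2 (standard error 0.25). BATF3, known for its need in dendritic cell development, was at 6.71 and 6.71 under SHP2 sh1, and at 6.75, 7.34 and 6.71 under SHP2 sh2, against 6.71 and 6.34 under Ctrl shRNA. On 4 of the 7 arrays its value was equal to 6 decimals, which gives SHP2 sh1 an SD of 0 that is no measure of its precision. Such equal values on 4 or more arrays were found in 3.57% of all genes. The log2 fold change of BATF3 was 0.40 under SHP2 sh2 (standard error 0.26) and 0.20 without SHP2 sh2 replicate 2.

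On the 2 arrays that stood apart, the difference from the controls went with the brightness of a gene's probe, and this bears on the whole family. Genes were split by their control level into 4 groups of equal size. On these 2 arrays, SHP2 sh1 replicate 2 first, the median difference from the control mean was -0.61 and -1.01 in the brightest group, which holds FOSL2, JUNB, JUN, FOSL1 and JUND, and 0.36 and 0.63 in the second dimmest, which holds MAFF, FOSB, BATF3 and ATF3. FOS belongs to the group between them, with medians of -0.0052 and -0.10. A weaker shift of the same direction was found on SHP2 sh2 replicate 1, at -0.18 in the brightest group and 0.13 in the second dimmest. That array remains in the values given without the 2 arrays, so they are not free of the shift.

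Set beside genes of their own level group, 4 of the 5 bright members lay above the median of their group on both arrays, and JUN below it. The share of all genes in that group above its median on both arrays was not counted. Genes outside the family lay far to either side as well, with ATF7 at 1.28 and 1.57 and MCL1 at -0.90 and -1.09 from that median. FOSL1 was 0.60 and 0.08 above the control mean on these 2 arrays, and so 1.21 and 1.10 above the median of its group. JUND was 0.52 and 0.27 above the control mean, which is 1.13 and 1.29 above that median. With a control mean of 8.25, JUND lay near the lower edge of the brightest group, as MMP3, at 8.17, belonged to the next one. That next group had medians of -0.0052 and -0.10, so the distance given for JUND depends on where the groups were split. By rank of probe signal within an array, which is no amount of RNA, FOSL1 was brighter than 95.7% and 94.2% of genes on these arrays, against 86.6% and 84.4% on the controls, and JUND brighter than 90.1% and 89.8%, against 74.9% and 77.7%. JUNB was 0.51 and 0.41 above the median of the brightest group and FOSL2 0.55 and 0.59 above it, although both were below their own control mean on these arrays. JUN lay at -0.27 and -0.32 from the median of its group. The 4 dimmer members stayed within -0.26 and 0.29 of the median of their group on SHP2 sh1 replicate 2, and within -0.12 and 0.19 on SHP2 sh2 replicate 2. From the median of its group, JUN was at 0.31 on SHP2 sh1 replicate 1. It was at -0.41 and -0.62 on SHP2 sh2 replicates 1 and 3, and at -0.28 and 0.28 on the 2 controls. The part of the array shift in the values of JUN was not tested.

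**Figure D2:**
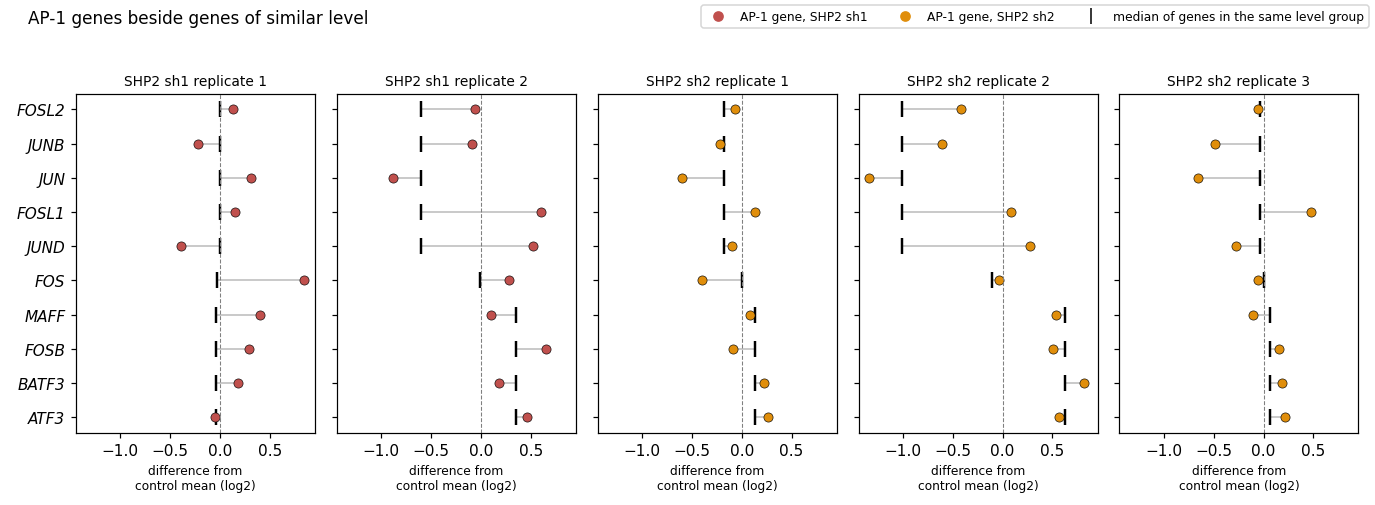
Difference from the control mean (log2) of the 10 AP-1 genes on each SHP2 array, ordered from the brightest control level at the top, with a vertical tick at the median of all genes in the same level group. On SHP2 sh2 replicate 2 the ticks of the 5 brightest members stand at -1.01, with FOSL1 at 0.08 and JUND at 0.27 to their right and JUN at -1.34 to their left.

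For SHP2 sh2 over SHP2 sh1, 8 of the 10 AP-1 genes had a log2 fold change below 0, beside 44.7% of all genes, with a median of -0.18, beside 0.029 over all genes. BATF3, at 0.22, and ATF3, at 0.14, were the 2 above 0. Leaving out the 2 arrays that stood apart, 6 of the 10 were below 0, beside 7967 of all 18417 genes. The median was then -0.16, beside 0.041 over all genes, and JUN was at -0.94 and MAFF at -0.42. With 1 or 2 arrays per hairpin, those values have no call (smallest adjusted p 0.247, for FOS, from limma).

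**Figure D3:**
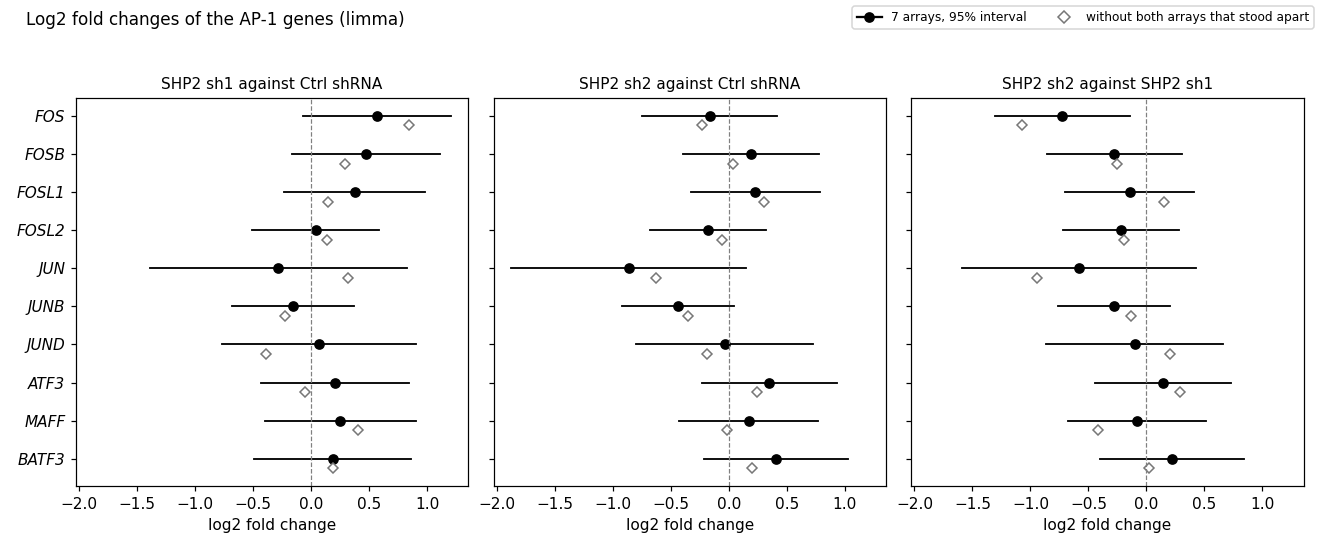
Log2 fold changes of the 10 AP-1 genes in 3 comparisons, with filled circles and lines for the limma estimate and 95% interval over 7 arrays and open diamonds for the estimate without the 2 arrays that stood apart. The interval excludes 0 for FOS between the hairpins, from -1.31 to -0.15 with no adjustment for the number of genes, and includes 0 in the other rows.

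Other immediate early genes, induced by the same growth factor signals as FOS, were measured in 15 of 17 listed. None passed the adjusted threshold in any comparison. EGR1 and EGR3, zinc finger factors chosen here after their values were seen, were with FOS the genes of this kind at an unadjusted p under 0.05 between the hairpins. EGR1 was at 9.78, 9.96 and 9.94 under SHP2 sh2, against 10.65 and 10.56 under SHP2 sh1, and at 10.07 and 10.77 under Ctrl shRNA. EGR3 was at 6.89, 6.81 and 6.94 under SHP2 sh2, against 7.84 and 7.42 under SHP2 sh1, and at 6.65 and 7.39 under Ctrl shRNA. FOS, EGR1 and EGR3 thus lay lower on every SHP2 sh2 array than on either SHP2 sh1 array, as did 3.08% of all genes and 5 of the 15 on the list (CCN1, KLF10 and ZFP36 beside EGR1 and EGR3), while none of the 15 lay above. They had log2 fold changes of -0.73, -0.71 and -0.75 (adjusted p = 1.00 for each from limma). Over the list, 11 of 15 genes were below 0 between the hairpins, beside 44.7% of all genes, with a median of -0.30, beside 0.029. For the mean of both hairpins the ends of the list were MCL1, a survival factor, at -0.75 and IER2 at -0.34, and NR4A1 and NR4A2, orphan nuclear receptors, at 0.46 and 0.44. KLF4, a zinc finger factor, had 0.34. Without the 2 arrays that stood apart, MCL1 was at 0.022, IER2 at -0.51, NR4A1 at 0.33, NR4A2 at 0.56 and KLF4 at 0.24.

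Genes reported as AP-1 targets were measured in 17 of 19 listed, and none passed the threshold. Averaged over both hairpins, 13 had a log2 fold change below 0, beside 42% of all genes, with a median of -0.25. Over all genes the median was 0.075. When the 2 arrays that stood apart were left out, 3 of the 17 were below 0, beside 9088 of all 18417 genes. The median was then 0.19, beside 0.0018 over all genes, so the direction of this list rests on those arrays. Most of the list belonged to the brightest of the 4 level groups. That group had medians of -0.61 and -1.01 on those arrays, against -0.73 and -1.03 for the list. MMP1, an interstitial collagenase with a known AP-1 site, was at 10.86 and 6.86 under SHP2 sh1, and at 9.17, 7.70 and 10.67 under SHP2 sh2, against 10.57 and 10.998 under Ctrl shRNA. MMP13, another collagenase, was at 10.91 and 7.97 under SHP2 sh1, and at 9.48, 8.25 and 10.46 under SHP2 sh2, against 10.54 and 10.98 under Ctrl shRNA. For both, the 2 lowest values came from the arrays that stood apart. LIF, a cytokine of the IL-6 family, was at 8.80 and 6.49 under SHP2 sh1, and at 7.31, 6.64 and 8.13 under SHP2 sh2, against 6.38 and 6.62 under Ctrl shRNA. For both hairpins averaged, the log2 fold changes were -1.76 for MMP1, -1.35 for MMP13 and 1.00 for LIF, and -0.39, -0.32 and 1.76 for these genes without the arrays standing apart. MMP9, a gelatinase, lay above both controls on all 5 SHP2 arrays, as did 8.13% of all genes, with a log2 fold change of 0.54 (standard error 0.23, adjusted p = 0.758 from limma). Its log2 fold change was 0.68 without the arrays standing apart.

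Related basic leucine zipper factors were measured in 11 of 13 listed, of which 4 had a log2 fold change below 0 for both hairpins averaged, beside 42% of all genes, with a median of 0.046, and none passed the threshold. JDP2, a repressor that pairs with JUN, lay above both controls on all 5 arrays, as did 8.13% of all genes, and had a log2 fold change of 0.43 (standard error 0.20). BACH1, a repressor that pairs with small MAF proteins such as MAFF, was at 7.81 and 6.23 under SHP2 sh1, and at 6.50, 6.67 and 6.203 under SHP2 sh2, against 7.54 and 7.65 under Ctrl shRNA. Its log2 fold change under SHP2 sh2 was -1.14 (standard error 0.45, adjusted p = 0.667 from limma), and -1.25 without SHP2 sh2 replicate 2 and SHP2 sh1 replicate 2. ATF4, a stress factor, had -0.38 for the mean of both hairpins, NFE2L2, an oxidative stress factor, -0.66, and MAF 0.46. With the arrays standing apart left out, these were -0.15 for ATF4, -0.15 for NFE2L2, 0.17 for MAF and 0.28 for JDP2. Among 14 of 17 upstream kinases and regulators that were measured, none passed the threshold and 11 were below 0, beside 42% of all genes, with a median of -0.17. Leaving the arrays standing apart out, 8 of the 14 were below 0, beside 9088 of all 18417 genes, and the median was -0.015, beside 0.0018. On those arrays the list medians were -0.62 and -0.85. Most of this list also belonged to the brightest level group, with medians there of -0.61 and -1.01. ELK3, an ETS factor that binds with serum response factor, had -0.71, MAPK8, which encodes the JUN kinase JNK1, -0.53, and MAPK3, which encodes ERK1, 0.26, the last above both controls on all 5 arrays, as were 8.13% of all genes. MAPK7, which encodes ERK5, had 0.19. When the arrays standing apart were left out, ELK3 was at -0.31, MAPK8 at -0.11 and MAPK3 at 0.24, and MAPK7 changed sign, at -0.029.

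**Figure D4:**
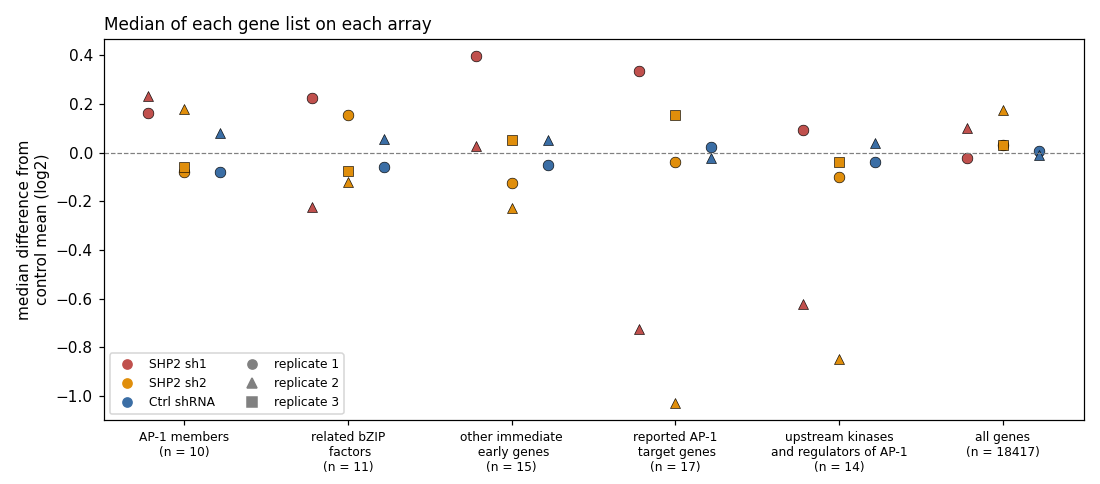
Medians of the difference from the control mean (log2) for the AP-1 genes, 4 related gene lists and all genes, by array. Colour stands for the group and symbols for the replicate number. The AP-1 genes lie between -0.08 and 0.23, whereas the reported AP-1 targets lie at -0.73 and -1.03 on the arrays standing apart and between -0.04 and 0.33 on the other SHP2 arrays.

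The genes with the profile closest to a member over the 7 arrays were found by the root mean square distance between differences from the control mean. For JUN these were ARRDC3 (0.11 on the log2 scale), TRIM5 (0.13) and ZFYVE9 (0.13), where the profile of JUN itself had a root mean square of 0.72. For FOS they were TLR1 (0.15), FBLN1 (0.17) and ZNF300P1 (0.17), beside 0.37 for FOS. For FOSL1 they were ANKRD18DP (0.09), DEFB133 (0.09) and PLAC1 (0.09), beside 0.30. The 7 arrays share 1 cell line and the shift of the 2 arrays that stood apart, so likeness in these profiles is a description.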

How the data were processed

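RNA of 7 cell samples was hybridized to Human Gene 1.0 ST arrays. The deposited log2 values came from robust multi-array averaging, run by the authors in oligo, whose version is not given in the sources used here. That method subtracts background, sets all arrays to 1 distribution of intensities and joins the probes of a transcript by median polish. These log2 values were used as deposited. The platform annotation named the probes, and its gene IDs were updated to RefSeq symbols of GRCh38.p14, which held 19429 of 19460 probes with 1 symbol. Where a gene had several, the probe of largest interquartile range was kept. limma (3.58.1, in R 4.3.3) fitted 3 group means over all 7 arrays with eBayes. The 4 comparisons were tested two-sided at 0.05, with p-values adjusted over 18417 genes by Benjamini-Hochberg. The code was tested on simulated data. The number of arrays limits the precision.

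The members and the gene lists were chosen with earlier results of these data known. Named were all members, PTPN11, the 3 genes of smallest p and the 2 at each end of every other list, and the 3 closest profiles of FOS, JUN and FOSL1. Alternatives were other probe choices, a filter at a mean of 5, cyclic loess, median centring, a variance trend, weights per array, fits on the compared arrays alone, a replicate block, array spread as a covariate, and arrays left out. Replicate numbers were checked for pairing. The array methods name TRIzol, whereas the sample labels name a column kit.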

Additional observations from a re-analysis of the deposited data

Results flagged for a closer look

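FOS was placed differently by the 2 hairpins. Both SHP2 sh1 arrays lay above the control mean (by 0.84 and 0.28 on the log2 scale) and all 3 SHP2 sh2 arrays below it (at -0.40, -0.03 and -0.06). The difference of SHP2 sh2 from SHP2 sh1 was -0.73 (95% interval -1.31 to -0.15) and did not pass limma's test over all genes (adjusted p = 1.00). Values of -0.03 and -0.06 are within the distance of either control from their mean, 0.06. No group held enough arrays for a test of single outlying arrays.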

How the results depend on the processing

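No AP-1 gene passed the threshold under any alternative (smallest adjusted p 0.119, for JUN under SHP2 sh2), and 8 of the 10 kept 1 sign in all of them for both hairpins averaged, 5 for SHP2 sh1, 6 for SHP2 sh2 and 5 for SHP2 sh2 over SHP2 sh1. Of the 5 for SHP2 sh1, BATF3 was at 0 without Ctrl shRNA replicate 2, which was not counted as a change of sign. FOS kept its sign in each of the 4 comparisons. The counts of genes called stayed at 0 except with array weights, which called 122 genes for SHP2 sh2, PTPN11 among them (log2 fold change -1.41, adjusted p = 0.0295 from limma). The weights were 6.73, 0.12 and 1.39 for SHP2 sh2 replicates 1, 2 and 3, so these calls rest largely on 1 array of that group. The causes of the following changes of sign were not tested. For both hairpins averaged, FOSL2 was at 0.26 with cyclic loess, 0.055 with array spread as a covariate and 0.034 without both arrays that stood apart, and JUND at -0.028 with array weights, -0.27 with the covariate and -0.29 without both arrays. Under SHP2 sh1, JUNB was at 0.074 with cyclic loess, JUN at 0.0046 with the covariate and 0.31 without both arrays, JUND at -0.14 and -0.39 in the same settings, and ATF3 at -0.052 without both arrays. Under SHP2 sh2, cyclic loess gave 0.22 for FOSL2 and 0.18 for JUND, FOSB was at -0.042 with array weights and -0.027 with the covariate, and MAFF at -0.012 without both arrays. For SHP2 sh2 over SHP2 sh1, FOSL1 was at 0.15 and JUND at 0.20 without both arrays.

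With 1 array left out at a time, values ran, for both hairpins averaged, from -0.18 to 0.034 for FOSL2 and from -0.21 to 0.24 for JUND. Under SHP2 sh1 they ran from -0.070 to 0.14 for FOSL2, -0.88 to 0.31 for JUN, -0.39 to 0.52 for JUND and -0.052 to 0.47 for ATF3, and under SHP2 sh2 from -0.19 to 0.088 for JUND and -0.012 to 0.31 for MAFF. For SHP2 sh2 over SHP2 sh1 they ran from -0.37 to 0.082 for FOSL1, -1.18 to 0.017 for JUN, -0.56 to 0.36 for JUND, -0.12 to 0.40 for ATF3, -0.26 to 0.073 for MAFF and -0.21 to 0.75 for PTPN11. SHP2 sh1 replicates 1 and 2 set both ends for JUN and JUND there. Medians of the gene lists moved by more than their spread in 38 cases. A lone array left in a group was assumed to vary like the other groups.

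The replicate numbers were not shown to pair the arrays, since deviations of same-numbered arrays correlated at -0.06 between SHP2 sh1 and Ctrl shRNA and at 0.02 and -0.03 between SHP2 sh2 and Ctrl shRNA. Between SHP2 sh2 and SHP2 sh1 they correlated at 0.62 for replicates 1 and 0.85 for replicates 2, which are the arrays that stood apart, while SHP2 sh1 replicate 1 correlated at 0.81 with SHP2 sh2 replicate 3. Deviations within a group of 2 arrays mirror each other, so the values for SHP2 sh1 replicates 1 and 2 are not separate evidence on pairing. Fitting the replicate block left 0 genes called in all 4 comparisons (2427, 753, 3323 and 468 at an unadjusted p under 0.05 for both hairpins averaged, SHP2 sh1, SHP2 sh2 and SHP2 sh2 over SHP2 sh1), and JUND was at 0.088 under SHP2 sh2, with JUND at 0.022 and MAFF at 0.055 for SHP2 sh2 over SHP2 sh1. SHP2 sh2 replicate 3 shares its number with no other array, so the block takes it out of every comparison. The JUND and MAFF values of the block fit are the same as those found by leaving that array out. A fit on the compared arrays alone gave no separate value for both hairpins averaged.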

Other observations

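Equal values across arrays were common in the deposited table. Compared to 6 decimals, 34.6% of the 18417 genes had the same value on 2 or more arrays, and among the AP-1 genes BATF3 had it on 4 arrays and FOSL1, FOSL2 and MAFF on 2 each.

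The median residual SD of the 10 was 0.25, beside 0.33 over all genes, and JUN (0.55) and JUND (0.38) were the 2 above 0.33. JUNB had the smallest, 0.16, above that of 14.04% of genes.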
